A study of Saccharomyces cerevisiae with 6 samples.

Results

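Copper metallothionein and copper uptake genes of Saccharomyces cerevisiae, baker's yeast, were followed through the return of oxygen. The set holds 10 genes of 6470 genes or unnamed features on the arrays. They are 4 genes of copper storage (the metallothionein genes CUP1-1, CUP1-2 and CRS5 with their activator gene CUP2) and 6 of copper uptake (CTR1, CTR3, CTR2, FRE1, FRE7 and the activator gene MAC1). Members were matched by gene symbol, and each had 1 feature and a value at all 5 aeration times. The set itself was selected on results of these same aerated samples, including the high CUP1 ratios at 10 min, so the values below are a description and carry no test.

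Yeast was grown to exponential phase in sealed, nitrogen-purged bottles of synthetic complete medium with amino acids, ergosterol and unsaturated fatty acids, and residual oxygen was removed with sodium dithionite. The cultures were then aerated for 5, 10, 20, 60 or 120 min. RNA of each time, 1 sample from its own flask, was hybridised on 2-colour arrays against pooled RNA of the anaerobic cultures, drawn before any air was given. The remaining sample sets this pool against itself. All samples share the medium and the anaerobic growth, no label gives the copper content of the medium, and the strain is not named in the sources used here.

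Levels are given as the log2 of aerated over anaerobic RNA, so 1 stands for a 2-fold higher and -1 for a 2-fold lower level than in the pool. The direction is likely, from the sample titles, and not settled by the dye labels. The log base was read from the values. With 1 sample per time there is no replicate error. As a measure of technical spread, 25 genes had a pair of features, of which 16 to 21 pairs had both values in an aerated sample. The SD of 1 feature within such pairs on the log2 scale was 0.19, 0.18, 0.25, 0.53 and 0.21 at 5, 10, 20, 60 and 120 min, and 0.35 in the self-hybridisation (6 pairs). It leaves out differences between flasks. A ratio of bulk RNA cannot tell less transcript per cell from fewer cells that carry it. The 60 min sample stood apart, with 11.4% of 5883 genes at least 2-fold higher and 12.9% at least 2-fold lower than the pool, and results that rest on it are also given without it. As a check of the aeration labels, the hypoxic cell wall gene TIR1 was at 2.24, -4.25, -2.83, -4.46 and -5.97 at 5, 10, 20, 60 and 120 min, and CYC1, the aerobic cytochrome c gene, at -1.19, 1.76, 3.16, 2.61 and 0.69. Both went the other way at 5 min, so the direction of the 5 min ratio was not borne out by them. Over genes, which are not replicates and here share the pool, the 5 min sample correlated at 0.382 with the 10 min sample. With the 20, 60 and 120 min samples it correlated at 0.151, 0.025 and 0.030, and with the self-hybridisation at 0.113. All are given in the direction of the titles, and whether they bear on it was not tested. Values at 5 min are given in that direction, and the main results that rest on it are also given with the 5 min ratio turned.

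Copper is needed by cytochrome oxidase, by the superoxide dismutase Sod1 and by the iron oxidase Fet3, and is toxic when free. Yeast balances it with a pair of copper-sensing transcription factors. Cup2, also called Ace1, binds copper in excess and switches on the metallothionein genes, whose small cysteine-rich products bind copper. Mac1 acts when copper is short and switches on surface reductases and high-affinity transporters, which bring reduced copper into the cell.

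The CUP1 copies had the highest ratios of the set at 5, 10, 20 and 120 min. They were far above the anaerobic pool at 10 and 20 min, close to it at 60 min and again above it at 120 min, while CTR1, the main high-affinity copper transporter gene, was more than 2-fold below it at every time and FRE1 was below it by less. With the 5 min ratio turned, both would be above the pool at 5 min, at 1.15 and 0.57. The other 6 members stayed within 2-fold of the pool at 5, 10, 20 and 120 min.

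Counted against all genes, 0, 2, 2, 3 and 2 members were at least 2-fold higher at 5, 10, 20, 60 and 120 min. The shares of all measured genes that high were 1.08%, 2.20%, 2.24%, 11.4% and 1.47% at the same times. At least 2-fold lower were 1 member each at 5, 10 and 20 min and 2 each at 60 and 120 min, beside 1.01%, 2.76%, 2.50%, 12.9% and 1.72% of all genes. Over the course, 5 of the 10 members were at least 2-fold higher at 1 or more times (CUP1-1, CUP1-2, CUP2, CTR2 and MAC1), against 14.6% of the 5771 genes with 5 values, and 2 were at least 2-fold lower (CTR1 and FRE1), against 16.0%. Without the 60 min sample the higher members were CUP1-1 and CUP1-2 (2 of 10, against 4.52% of genes), and the lower ones were still CTR1 and FRE1 (2 of 10, against 5.04%). These counts were fixed in part by how the set was chosen, and CUP1-1 and CUP1-2 are not independent of each other.

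CUP1-1 (YHR053C) and CUP1-2 (YHR055C) encode the same protein, the main yeast metallothionein, from a tandem array on chromosome VIII whose number of copies varies between strains. Arrays cannot separate the copies. CUP1-1 was at 0.89, 5.56, 3.86, 0.49 and 1.92 at 5, 10, 20, 60 and 120 min. CUP1-2 was at 0.77, 5.47, 3.59, 0.04 and 1.96. The features differed by between -0.04 and 0.44 and were each other's closest gene over the course, so they act as repeat measurements of 1 transcript.

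At 10 min the CUP1 ratios were 47.2-fold and 44.2-fold above the pool, the highest and the next of 6091 genes. They ranked 2 and 3 of 6292 genes at 20 min, at 14.5-fold and 12.1-fold, and 7 and 5 of 6264 at 120 min, at 3.79-fold and 3.90-fold. At 5 min they ranked 91 and 144 of 6115, below 2-fold. At 60 min the ranks were 1817 and 3082 of 5883, in the middle of all genes.

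The step between 5 and 10 min was 4.67 for CUP1-1 and 4.70 for CUP1-2 on the log2 scale, a 25.4-fold and 25.9-fold difference and the third and second largest upward steps of 6018 genes. With the 5 min ratio turned, CUP1 would be at -0.89 and -0.77 at 5 min and the steps 6.46 and 6.23, ranks 2 and 4. The 60 min values minus those at 20 min were -3.37 and -3.55, and the 120 min values were above those at 60 min by 1.44 and 1.92. In the direction of the titles, the order of the times from 10 through 20 and 120 to 5 min was the same for both copies. Every gap was larger than the technical SD of a difference. The gap between 5 and 60 min was larger than that SD for CUP1-2 (0.72, against 0.56) and smaller for CUP1-1 (0.41). With the 5 min ratio turned, 5 min would fall below 60 min for both copies, which were at 0.49 and 0.04 at 60 min. Means over the 5 times were 2.54 ± 2.13 and 2.37 ± 2.19 (SD over 5 samples that differ in time), ranks 2 and 3 of 5771. In the self-hybridisation the copies were at -0.38 and -0.54, on the opposite side of 0.

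**Figure D1:**
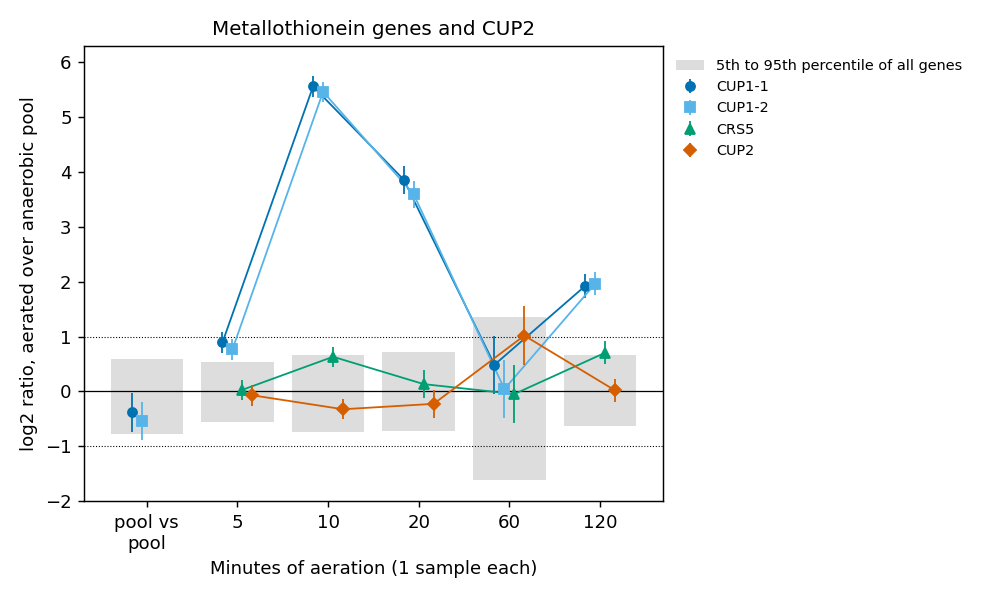
log2 ratio of aerated over anaerobic RNA (y) against minutes of aeration (x, 1 sample each), for the metallothionein genes and CUP2, with the pool against itself at the left. Bars on points are the technical SD from paired features, grey boxes span the 5th to 95th percentile of all genes and dotted lines mark 2-fold. The CUP1 copies reach 5.56 and 5.47 at 10 min, while CRS5 stays at or below 0.71.

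CRS5, the second metallothionein gene, encodes a protein with a smaller part in copper resistance than Cup1. It was at 0.03, 0.63, 0.13, -0.05 and 0.71 at 5, 10, 20, 60 and 120 min. Its highest samples were those at 10 and 120 min, at 1.55-fold and 1.63-fold above the pool, which differed by less than the technical SD of a difference (0.07, against 0.28). They ranked 349 of 6091 and 284 of 6264 genes. The samples at 5, 20 and 60 min lay near 0 and were not separated from each other by that measure. By it, 10 and 120 min were above 5, 20 and 60 min in CRS5, while in CUP1 20 min was also high. The measure leaves out differences between flasks, so this order of single samples is a description only. CRS5 has no value in the self-hybridisation, where the 95th percentile of all genes was 0.58.

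CUP2 encodes the activator that binds the CUP1 and CRS5 promoters when it holds copper. Its transcript was at -0.07, -0.32, -0.23, 1.02 and 0.02 at 5, 10, 20, 60 and 120 min. It was thus slightly below the pool at the times of the highest CUP1 ratios. The single high value was at 60 min, where CUP1 was closest to the pool and where the spread of all genes was widest: 643 of 5883 genes ranked at or above it. Cup2 is controlled by copper binding to the protein, which arrays do not read.

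The CUP1 copies are separated in the R64 reference table by YHR054C, a reading frame of unknown function, and followed by RSC30, which encodes a subunit of the RSC chromatin remodelling complex, and CPR2, a cyclophilin gene. These neighbours were examined after the CUP1 values had been seen. YHR054C was at 0.19, 1.86, 1.32, -0.21 and 0.28 at 5, 10, 20, 60 and 120 min, and ranked 24 of 6091 genes at 10 min and 78 of 6292 at 20 min. RSC30 was at 0.16, 1.18, 0.77, -1.32 and -0.16. Both had their highest ratios at 10 min and the next at 20 min, the same times as CUP1, with far smaller ratios. Whether the features of YHR054C and RSC30 read separate transcripts was not tested, so they are not counted as independent neighbours. CPR2, the next gene after RSC30, lay between 0.07 and 0.43 at all 5 times, with no such peak. The other entries that the reference table lists beside the copies (RUF5-1, RUF5-2, YHR052C-B and YHR054C-B) have no named feature here, and the part of array features that pair with more than 1 transcript in these values was not tested.

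**Figure D2:**
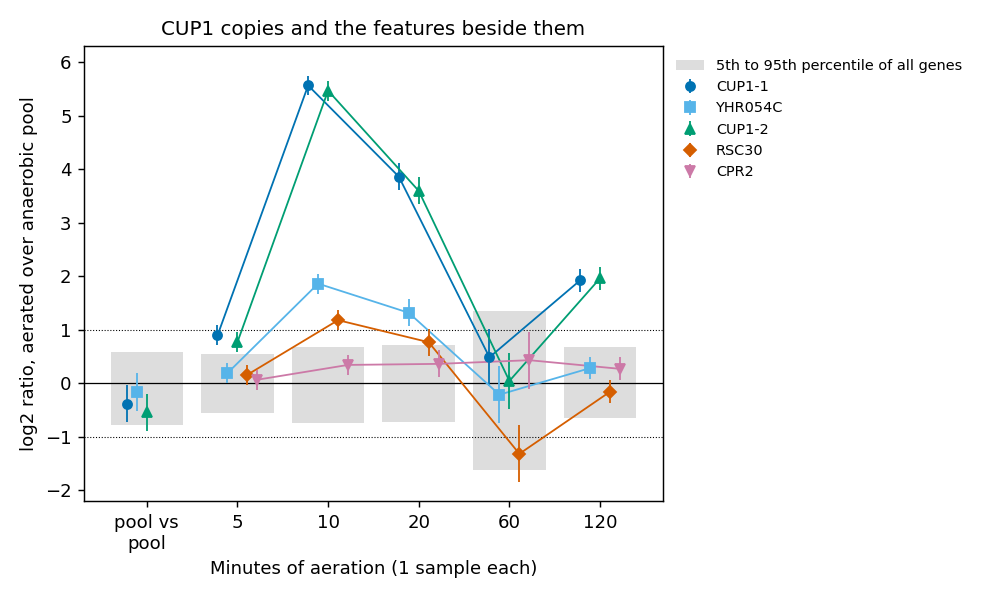
log2 ratio of aerated over anaerobic RNA (y) against minutes of aeration (x, 1 sample each) for the CUP1 copies and the named features beside them on chromosome VIII, in the order of the reference table; symbols, bars, boxes and dotted lines are as in the plot of the metallothionein genes. YHR054C (1.86) and RSC30 (1.18) are highest at 10 min, as CUP1 is, and CPR2 is not.

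CTR1 encodes the high-affinity copper transporter of the plasma membrane and is a target of Mac1. It was at -1.15, -2.16, -2.42, -1.55 and -1.41 at 5, 10, 20, 60 and 120 min, that is 2.22, 4.46, 5.36, 2.92 and 2.65-fold below the pool. All 5 samples were low, the lowest at 20 min. Counted from the lowest gene of each sample it ranked 44, 29, 17, 330 and 31 at these times. The values at 10 and 20 min differed by less than the technical SD of a difference (0.26, against 0.31). So did those at 5, 60 and 120 min between neighbours in the order, with 5 min in the direction of the titles. The step between 60 and 10 min was above that SD (0.61, against 0.56).

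Of the 5771 genes with 5 values, 4 (0.0693%) were at least 2-fold lower at all 5 times, and CTR1 was among them. The other 3 were MUP3, a methionine permease gene, SUL2, a sulfate permease gene, and RTC2, which encodes a putative vacuolar transporter of basic amino acids. In the direction of the titles, the mean of CTR1 over the 5 times was -1.74 ± 0.53 (SD, n = 5 samples that differ in time). It was the 11th lowest of 5771, and the mean was -1.28 with the 5 min ratio turned. CTR1 was not at least 2-fold lower at all 5 times with the values read as log2, at -0.80 at 5 min and -0.97 at 120 min. Nor was it with all aerated samples brought to 1 spread, at -0.65 at 60 min, or with the 5 min ratio turned. It has no value in the self-hybridisation, so its ratio with no difference in RNA is not known.

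FRE1 encodes the main surface reductase, which reduces ferric iron and cupric copper before uptake and is under Mac1 for copper and Aft1 for iron. It was at -0.57, -0.57, -0.74, -1.21 and -1.02 at 5, 10, 20, 60 and 120 min. The samples at 60 and 120 min were at least 2-fold low. No neighbouring values in the order of the times, taken in the direction of the titles, were further apart than the technical SD of a difference. The mean of FRE1 was -0.82 ± 0.29 (SD, n = 5), the 116th lowest of 5771 genes, and -0.60 with the 5 min ratio turned. In the self-hybridisation FRE1 was at 0.35. In the direction of the titles, CTR1 and FRE1 were the only members below 0 at all 5 times, as 415 of 5771 genes were (7.19%).

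In the direction of the titles, CTR1 and FRE1 differed in course as well as in size. CTR1 was 1.01 lower at 10 than at 5 min, while FRE1 differed by 0.01 between these samples (10 minus 5 min -3.31 and -1.14 with the 5 min ratio turned). FRE1 was lower at 60 and 120 min than at 5 and 10 min, with a late minus early difference of -0.55, beside 0.18 for CTR1. Without the 60 min sample these differences were -0.45 and 0.25. With the 5 min ratio turned, CTR1 and FRE1 would be at 1.15 and 0.57 at 5 min. Both genes would then be higher at 5 min than at any later time, so the contrast rests on the direction of the titles.

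**Figure D3:**
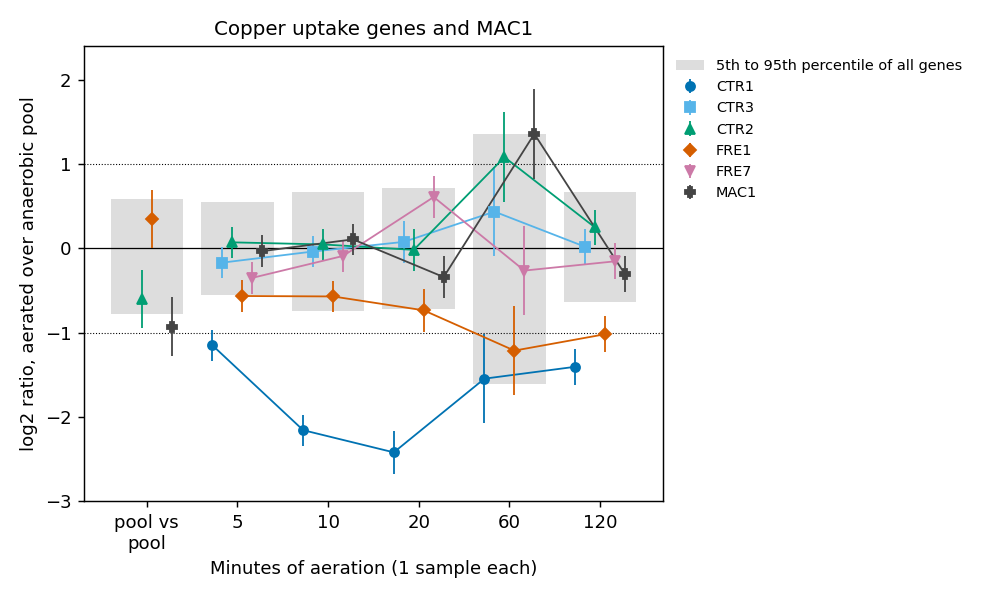
log2 ratio of aerated over anaerobic RNA (y) against minutes of aeration (x, 1 sample each) for the copper uptake genes and MAC1; symbols, bars, boxes and dotted lines are as in the plot of the metallothionein genes. CTR1 lies below the 2-fold line at all 5 times and FRE1 below 0, and CTR2 and MAC1 pass the upper line at 60 min, where the box of all genes is widest.

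CTR3 encodes a second high-affinity transporter, a Mac1 target that many laboratory strains carry in a form disrupted by a Ty2 element. It was at -0.17, -0.04, 0.08, 0.43 and 0.02 at 5, 10, 20, 60 and 120 min. No neighbouring pair in the order of these values was separated by the technical SD of a difference, and CTR3 did not share the low ratios of CTR1. CTR2, which encodes the transporter that releases copper from the vacuole, was at 0.07, 0.05, -0.02, 1.08 and 0.25, and at -0.60 in the self-hybridisation.

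FRE7, a further Mac1-dependent reductase gene, was at -0.35, -0.09, 0.61, -0.26 and -0.15 at 5, 10, 20, 60 and 120 min. In the direction of the titles, the 20 min sample was the single one above 0, at 1.52-fold, and ranked 455 of 6292 genes. It was above the next by 0.70, more than the technical SD of a difference (0.31). With the 5 min ratio turned, FRE7 would be at 0.35 at 5 min, also above 0. FRE7 was thus highest where CTR1 was lowest, but the CTR1 values at 10 and 20 min were not separated by the technical SD of a difference. Of the 4 members named as Mac1 targets, CTR1 and FRE1 were below the pool at each of 10, 20, 60 and 120 min. CTR3 and FRE7 lay on either side of it over these times. Outside the set, the Mac1 target IRC7 was also below the pool at these times, at -1.17, -1.19, -0.74 and -0.74. REE1, another reported target, lay on either side of it.

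MAC1 itself was at -0.03, 0.11, -0.34, 1.36 and -0.31 at 5, 10, 20, 60 and 120 min. The 60 min sample alone was high, at 2.56-fold, and ranked 294 of 5883 genes. At 5, 10, 20 and 120 min it was within 1.27-fold of the pool, while in the self-hybridisation, where no difference exists, it was at -0.93, further from 0 than at any of those times. Both regulator genes and CTR2 shared a single high value at 60 min, at 1.02 for CUP2, 1.08 for CTR2 and 1.36 for MAC1. With the aerated samples scaled to the same spread, the 60 min values were 0.43, 0.46 and 0.57, all under 2-fold.

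In the direction of the titles, the order of the members was the same at its ends at 5, 10, 20 and 120 min. The CUP1 copies were on top, not separated from each other, and CTR1 was at the bottom with FRE1 above it. The members between these ends changed order from time to time and were mostly not separated from their neighbours by the technical SD of a difference. At 60 min MAC1, CTR2 and CUP2 were on top, ahead of CUP1-1, and the single gap above that SD (0.75) was between FRE7 at -0.26 and FRE1 at -1.21.

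Genes outside the set with the most similar course were found by the root mean square difference of the log2 ratios over the 5 aerated samples. For CUP1-1 these were GPX2, a glutathione peroxidase gene, at 1.23, STE20, a kinase gene of the mating pathway, at 1.47 and BUD2, a gene of bud site selection, at 1.68. The same 3 genes were nearest to CUP1-2. GPX2 was at 2.72, 4.85, 5.57, 1.20 and 1.36, so it peaked at 20 and not at 10 min. These distances are several times the mean technical SD of 0.27, and CUP1 had 0 genes other than its own copy within 2 such SDs.

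For CTR1 the nearest genes were SUL2 at 0.43, MUP3 at 0.47 and MET16, a gene of sulfate assimilation, at 0.48. SUL2 was at -1.06, -1.56, -1.87, -2.02 and -1.52. CTR1 had 7 genes within 2 technical SDs. FRE1 was nearest to an unnamed feature at 0.16, to YBL100W-A, a retrotransposon reading frame, at 0.28 and to PUF2, which encodes an RNA-binding protein, at 0.28.

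The remaining members, which lay nearer to the pool, had many genes as close. Within 2 technical SDs lay 2133 genes for CRS5, 2574 for CUP2, 3798 for CTR3, 2623 for CTR2, 2794 for FRE7 and 1667 for MAC1. Their nearest genes were COR1, SLU7 and DSE2 for CRS5 (0.06 to 0.09), URN1, AUA1 and ASP3-3 for CUP2 (0.07 to 0.10), PSK2, SPC98 and PSR1 for CTR3 (0.04 to 0.05) and GAL80, SLM2 and RBA50 for CTR2 (0.03 to 0.08). For FRE7 they were ASG7, RPS30A and an unnamed feature (0.17 each), and for MAC1 an unnamed feature, EMP70 and YKE4 (0.11 to 0.13).

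Other genes of copper handling were taken as a list of 30 genes, of which 28 had all 5 values. At least 2-fold higher were 0 of 30, 3 of 29, 3 of 30, 3 of 29 and 2 of 30 measured genes at 5, 10, 20, 60 and 120 min, beside the shares of all genes given with the members' counts. At least 2-fold lower were 0, 3, 4, 3 and 0 at the same times. Median log2 ratios of the list were 0.04, 0.08, -0.06, 0.12 and 0.03, beside 0.0, 0.0, 0.0, 0.09 and -0.01 for all genes. The medians lay near the pool, with members on both sides of it. At 10 min 10.3% of the list was 2-fold higher and 10.3% lower, against 2.20% and 2.76% of all genes, and at 20 min 10.0% and 13.3%, against 2.24% and 2.50%. At 60 min the shares of the list were 10.3% and 10.3%, below the 11.4% and 12.9% of all genes. At 5 min they were 0% and 0%, against 1.08% and 1.01%, and at 120 min 6.67% and 0%, against 1.47% and 1.72%. The list was chosen with earlier results of these data known, so these shares carry no test.

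Among further targets of the same regulators, SOD1, the copper-zinc superoxide dismutase gene that Cup2 also activates, was at 0.78, 1.48, 2.18, 1.42 and 1.65 at 5, 10, 20, 60 and 120 min. It was above 2-fold at 4 of 5 times and at its highest at 20 min, later than CUP1, and at 60 min it stayed high where CUP1 was near the pool. IRC7, a cysteine lyase gene under Mac1, was at -0.03, -1.17, -1.19, -0.74 and -0.74, low from 10 min on as CTR1 was, but near 0 at 5 min. REE1, another reported Mac1 target, lay between -0.40 and 0.49.

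In copper delivery, most chaperone genes were close to the pool. ATX1, which hands copper to the Golgi pump Ccc2, was at 1.07 at 60 min and between -0.12 and 0.61 at the other times, and CCC2 itself lay between 0.17 and 0.83. COX17, a copper chaperone for cytochrome oxidase, was at 1.19 at 20 min and between -0.17 and 0.74 otherwise. CCS1, the chaperone for Sod1, lay between -0.62 and 0.53, with none of the high ratios of SOD1. PIC2, a mitochondrial carrier of copper and phosphate, was at -0.78, -1.06, -1.21, -1.505 and -0.37. GEF1, COX19, COX23, CMC1, CMC2, SCO1 and COX11 stayed within 2-fold at every time measured, and SCO2 was at -1.96 at 60 min and within 2-fold otherwise.

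FET3, a multicopper oxidase that loads iron through the permease Ftr1, was at -0.07, 2.26, 1.78, 4.17 and 2.22, above 2-fold from 10 min on. FET5, its vacuolar counterpart, lay between -0.09 and 0.41. The reductase genes FRE2, FRE3, FRE4, FRE5, FRE6 and FRE8 stayed within 2-fold at every time, so FRE1 was the single reductase gene of the 8 examined that reached 2-fold. This depends on the limit: FRE1 was at -1.21 at 60 min and -1.02 at 120 min, and at -0.84 and -0.71 with the values read as log2. FRE3 and FRE6 came close on the high side at 60 min, at 0.91 and 0.90. FET4, a low-affinity importer of iron and copper, was at -1.65 at 20 min and between -0.30 and 0.26 otherwise, and SMF1, a manganese importer, stayed within 2-fold.

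Of the other tolerance genes, SLF1, which acts in the deposition of copper sulfide, was at 0.23, 1.29, 0.49 and 0.98 at 5, 10, 20 and 120 min, with no value at 60 min. Its highest times, 10 and 120 min, were those of CRS5. CUP9, a repressor gene first found through copper sensitivity, was at -0.99, -1.69, -1.75, 0.12 and -0.03. It was low at 10 and 20 min, where CUP1 was highest, and near the pool at 120 min, where CUP1 was also high. At 5 min, in the direction of the titles, CUP9 was at -0.99 while CUP1 was less than 2-fold above the pool. PCA1, which encodes a metal-exporting ATPase, lay between -0.42 and 0.07. BSD2, which guides metal importers to the vacuole, was at -2.72 at 60 min and between -0.03 and 0.61 at the other times.

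**Figure D4:**
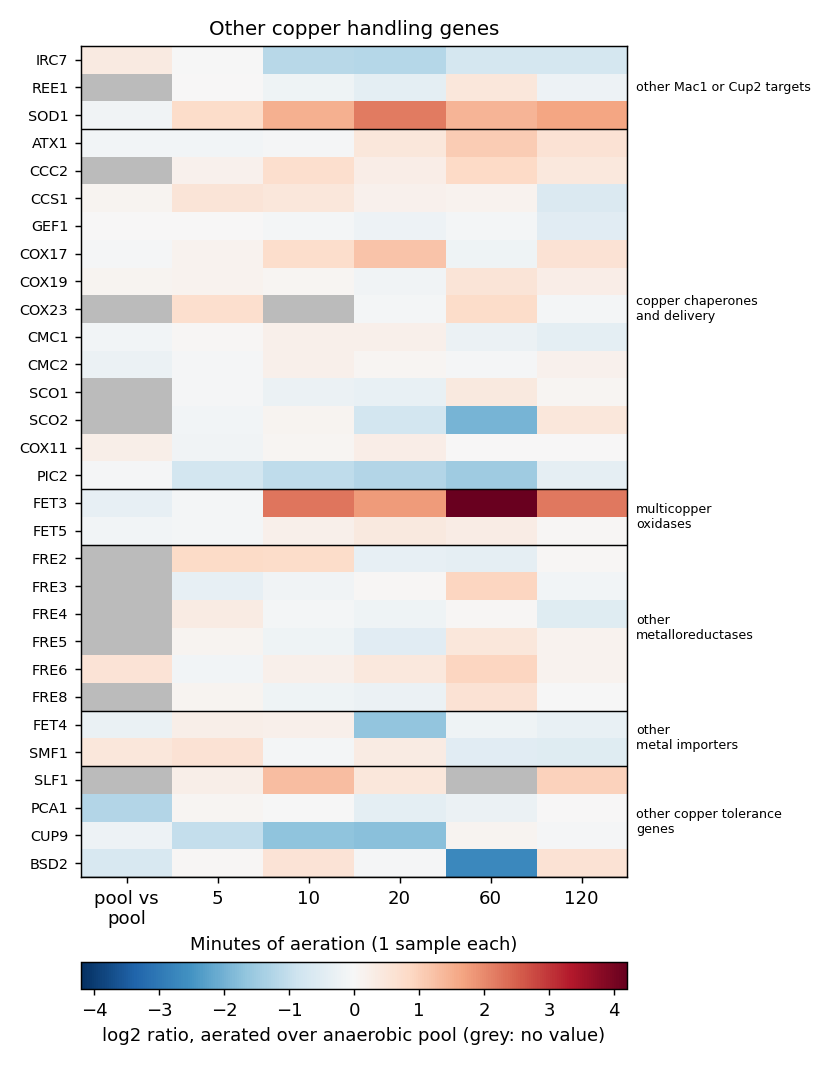
log2 ratio of aerated over anaerobic RNA (colour) for 30 other copper handling genes (rows, by group) at each time of aeration (columns, 1 sample each), with the pool against itself at the left and missing values in grey. SOD1 and FET3 are high at 4 of 5 times, and most chaperone and reductase genes stay near 0.

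In the self-hybridisation 5 of the 10 members had a value, against 3521 of 6470 genes. They were CUP1-1 at -0.38, CUP1-2 at -0.54, CTR2 at -0.60, FRE1 at 0.35 and MAC1 at -0.93, so 4 of 5 lay below 0 and 0 were 2-fold away, against 1.02% of genes 2-fold above and 2.98% below. The CUP1 ratios at 10, 20 and 120 min were several times larger than these values and on the other side of 0. Those of CTR2 and MAC1 at 60 min, 1.08 and 1.36, stood beside -0.60 and -0.93 here. This control comes from 1 array, while the authors joined 2 arrays with swapped dyes for every aerated sample.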

How the data were processed

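Each of 6 samples (5 aeration times and the pool against itself) was measured on 2-colour arrays. The authors deposited 1 table of normalized log ratios for 6495 features; per the series' design text the dye-swap arrays of each aeration time were condensed into 1 sample. The sources used here name no background correction, normalization method or filter. Spot intensities were not used, so signal over background is unknown, and precision is limited by how few arrays there are. The log base is unstated: the lowest deposited value, -4.6051702, is the natural log of 0.01, so the deposited values were read as natural log ratios and divided by 0.6931 to give log2 ratios. Gene symbols came from the platform table (5754 features with 1 symbol, 0 with several, 741 with none), all matched by gene ID to the R64 reference table. Features of 1 gene were averaged.

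Counts of genes at least 2-fold above or below the pool were made per sample, with no test. Technical spread was the SD within pairs of features of 1 gene. The members and lists were chosen with earlier results of these data known. The genes named are the 10 members, the list of 30, the 3 nearest genes of each member, TIR1 and CYC1; the genes beside CUP1 and the genes lower at all 5 times were added after their values were seen. Steps were checked on simulated data. Software was Python 3.11.15, pandas 2.3.3, numpy 2.4.6 and matplotlib 3.10.9. Alternatives were the log base, centring, scaling, fold limits of 1.5 and 3, leaving out samples, and turning the 5 min ratio.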

Additional observations from a re-analysis of the deposited data

How the results depend on the processing

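The CUP1 copies at 10, 20 and 120 min stayed past the fold limit under each alternative of scale and limit that was run, as did CTR1 at 10 and 20 min on the low side. Read as log2, the deposited values gave 0 members 2-fold higher at 60 min, and 0, 1 and 0 lower at 5, 60 and 120 min; over the course 2 were higher and 1 was lower, and the mean of CTR1 was -1.20. With samples centred on their medians, 1 member was higher at 60 min and 3 over the course. Scaled to the same spread, 1 was higher at 5 min (CUP1-1), 0 were higher and 0 lower at 60 min, and 2 were higher over the course. These changes come from the construction, since the 5 min sample was multiplied by 1.278 and the 60 min sample by 0.423. With the 5 min ratio turned, an alternative added after the data were seen, 1 member was higher (CTR1) and 0 were lower at 5 min, and 5 genes, CTR1 not among them, were 2-fold lower at all 5 times. At a limit of 1.5-fold, 2 members were higher at 5 min and 2 lower at 20 min. At 3-fold, 0 were higher at 60 min and 0 lower at 5, 60 and 120 min.

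Leaving out 1 sample at a time, the count of higher members over the course ranged from 2 (without 60 min) to 5 and that of lower members was 2 throughout. The alternatives over the course were added after the data were seen. Means with 1 sample left out ranged from 1.79 to 3.06 for CUP1-1, 1.59 to 2.95 for CUP1-2 and -1.88 to -1.57 for CTR1. With the 5 min ratio turned, the means of these genes were 2.19, 2.06 and -1.28, the last outside its range. Late minus early differences (60 and 120 min minus 5 and 10 min) were taken in the direction of the titles. They include the 5 min sample and are not given with its ratio turned. They were -2.02 for CUP1-1, -2.11 for CUP1-2, 0.0 for CRS5, 0.72 for CUP2, 0.61 for CTR2 and 0.49 for MAC1. Without the 60 min sample they were -1.31, -1.15, 0.37, 0.22, 0.19 and -0.34. With each gene centred on its own mean, at most 1 of the 3 nearest genes was shared for 8 members and 2 for CRS5 and CTR3, and for CTR1 0 were shared, so likeness there includes the level.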
